A study of Homo sapiens with 47 samples.

Results

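The miR-548 family was described in PC-3 and 22Rv1 (PC3 and p22rv1 in the labels), human prostate cancer cell lines, from counts of small RNA reads per mature microRNA (miRNA). Members were all entries of the count table whose name begins with miR-548, taken by name alone. The table held 1006 entries, of which 60 carried such a name. Entries with the same count in every library were kept once, which left 50. Per the labels, PC-3 originates from a bone metastasis and 22Rv1 from a subline of the CWR22R xenograft. Cells of each line were kept for 24 h at 5, 2, 1, 0.5, 0.2 or 0% O2, and every O2 level had its own normoxia control. There were 2 libraries per group, except the 22Rv1 control of the 0.2% level with 1, so that 24 PC-3 and 23 22Rv1 libraries were used. The labels say that the treatments were done in duplicate, not whether the cultures were separate, and p-values therefore cover only the spread among these libraries, which may be technical.

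The family is restricted to primates and is known for its origin in Made1, a short palindromic transposable element. A transcribed copy of the palindrome folds back on itself into a hairpin, from which Drosha and Dicer cut a mature miRNA of either arm. The mature miRNA guides Argonaute to messenger RNAs that pair with its seed, bases 2 to 8 counted from the 5' end. Because the many genomic copies are alike, mature sequences of different members differ by few bases or not at all.

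Of the 60 names, 39 had a mature sequence in RefSeq (GRCh38.p14). The sequences below are shown because they belong to abundant entries, to entries that differ widely between the lines, or to arms and near relatives of these compared in the text. Capitals mark the seed. The first 6 are from the 5' arm and the other 5 from the 3' arm.
miR-548k: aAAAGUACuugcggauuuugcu
miR-548l: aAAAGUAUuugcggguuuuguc
miR-548ab: aAAAGUAAuuguggauuuugcu
miR-548b-5p: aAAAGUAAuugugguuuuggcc
miR-548y: aAAAGUAAucacuguuuuugcc
miR-548f-5p: uGCAAAAGuaaucacaguuuuu
miR-548o-3p: cCAAAACUgcaguuacuuuugc
miR-548f-3p: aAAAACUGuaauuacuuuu
miR-548x-3p: uAAAAACUgcaauuacuuuc
miR-548aq-3p: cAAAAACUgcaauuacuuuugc
miR-548ah-3p: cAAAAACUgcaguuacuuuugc

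Positions are counted from 1 at the 5' end of the first miRNA named. miR-548k and miR-548ab differ by C8A and C12U over 22 bases. C8A lies in the last base of the seed, so the pair do not share a seed. miR-548k and miR-548l differ by C8U, A15G, C21U and U22C. miR-548ab and miR-548b-5p share the seed and differ by A15U, U19G and U22C. On the 3' arm, miR-548ah-3p and miR-548aq-3p differ by G12A alone. In RefSeq, miR-548k lies at chr11:70283986-70284007 (+ strand), within an intron of PPFIA1 in the GENCODE annotation of GRCh38. miR-548b-5p lies at chr6:119069098-119069119 (- strand), in an intron of FAM184A. miR-548l lies at chr11:94466545-94466566 (- strand), in an intron of MRE11, which encodes a DNA double-strand break repair nuclease. miR-548ab (chr3:103524085-103524106, - strand) and miR-548y (chr14:47761061-47761082, - strand) lie in no annotated host gene. miR-548x-3p has copies at chr21:18686100-18686119 (- strand), in an intron of MIR548XHG, and at chr13:65966352-65966371 (- strand).

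Some names could not be told apart by their counts. There were 5 sets of names with identical counts, holding 15 names. miR-548d-5p stands for miR-548ad-5p, miR-548ae-5p and miR-548ay-5p as well (4457 counts over all libraries). miR-548am-5p stands for miR-548au-5p, miR-548c-5p and miR-548o-5p (707 counts), and miR-548aj-5p for miR-548g-5p and miR-548x-5p (340 counts). miR-548aa stands for miR-548t-3p (286 counts) and miR-548z for miR-548h-3p (243 counts). A further 3 pairs differed by 1 count in 1 library. These are miR-548k and miR-548av-5p (15206 and 15205 counts), miR-548o-3p and miR-548av-3p (4552 and 4551), and miR-548j-5p and miR-548ap-5p (217 and 216). In each of these pairs the shorter listed sequence lies inside the longer. They are tested as listed and counted once in sums, which leaves 47 distinct entries. The counts of each pair cannot be told apart, and a value for miR-548k is also a value for miR-548av-5p.

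Library totals ran from 1742290 to 4327382 counts in PC-3 and from 960421 to 3181344 in 22Rv1. Levels are CPM, counts scaled to the same library total, after normalisation over all 47 libraries by TMM, the trimmed mean of M values. The epithelial miR-200 list (5 of 5 in the table) summed to 7764 to 9293 CPM in PC-3 and 23234 to 59686 CPM in 22Rv1, with none of its members at 0. Its members went opposite ways. In PC-3 miR-200a-3p, miR-200b-3p and miR-429 were higher, with means of 1868, 6289 and 377 CPM against 39.6, 55.2 and 5.13 CPM in 22Rv1. In 22Rv1 miR-200c-3p and miR-141-3p were higher, with means of 21676 and 12304 CPM against 23.9 and 9.70 CPM in PC-3. A list of 6 smooth muscle or stromal miRNAs, all in the table, summed to at most 45.9 CPM in PC-3 except in both libraries of replicate 1 at the 5% level, at 1405 and 1478 CPM, mainly from miR-143-3p. In 22Rv1 that list ran from 54.3 to 533 CPM. A list of blood or serum miRNAs (5 of 6 in the table) summed to 224 to 400 CPM in PC-3 and 805 to 2649 CPM in 22Rv1, mainly from miR-486-5p. The 22Rv1 libraries of replicate 1 at the 5% level were the shallowest and had the highest epithelial sums. Counts of members called below are also given without these libraries.

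The family was a small part of both miRNA pools and a larger part in 22Rv1. It took 0.0231% ± 0.00133 of counts in PC-3 (SD, n = 24) and 0.0497% ± 0.00896 in 22Rv1 (n = 23). In CPM, the lowest, median and highest PC-3 library were at 245, 267 and 286. In 22Rv1 they were at 324, 426 and 476, so the lines did not overlap. Without miR-548k the sums were 145 ± 11.5 CPM in PC-3 and 295 ± 28.6 CPM in 22Rv1. Hypoxia and normoxia libraries overlapped within each line, at 268 ± 12.2 and 266 ± 10.8 CPM in PC-3 (n = 12 each) and at 411 ± 29.1 (n = 12) and 433 ± 39.9 CPM (n = 11) in 22Rv1.

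miR-548k was the most abundant entry of the family in both lines. It ran from 104 to 138 CPM in PC-3 (median 122) and from 96.1 to 156 CPM in 22Rv1 (median 127), and ranked 183 and 164 among the 1006 entries. It made up 45.6% ± 3.02 of the family in PC-3 and 30.0% ± 2.49 in 22Rv1. The next entries of PC-3 by mean were miR-548o-3p (24.5 CPM), miR-548d-5p (18.8 CPM), miR-548y (16.8 CPM) and miR-548e-3p (7.24 CPM). In 22Rv1 they were miR-548d-5p (51.6 CPM), miR-548o-3p (47.4 CPM), miR-548ab (39.9 CPM) and miR-548b-5p (25.6 CPM). The lines thus shared their leading entry, while miR-548ab and miR-548b-5p were at 1.18 and 1.91 CPM in PC-3 and miR-548y at 0.297 CPM in 22Rv1. Most members were rare: the median entry was at 1.86 CPM in PC-3 and 2.29 CPM in 22Rv1, and 17 of 50 were below 1 CPM in each line. Only 18 of 50 were seen in all 47 libraries.

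**Figure D1:**
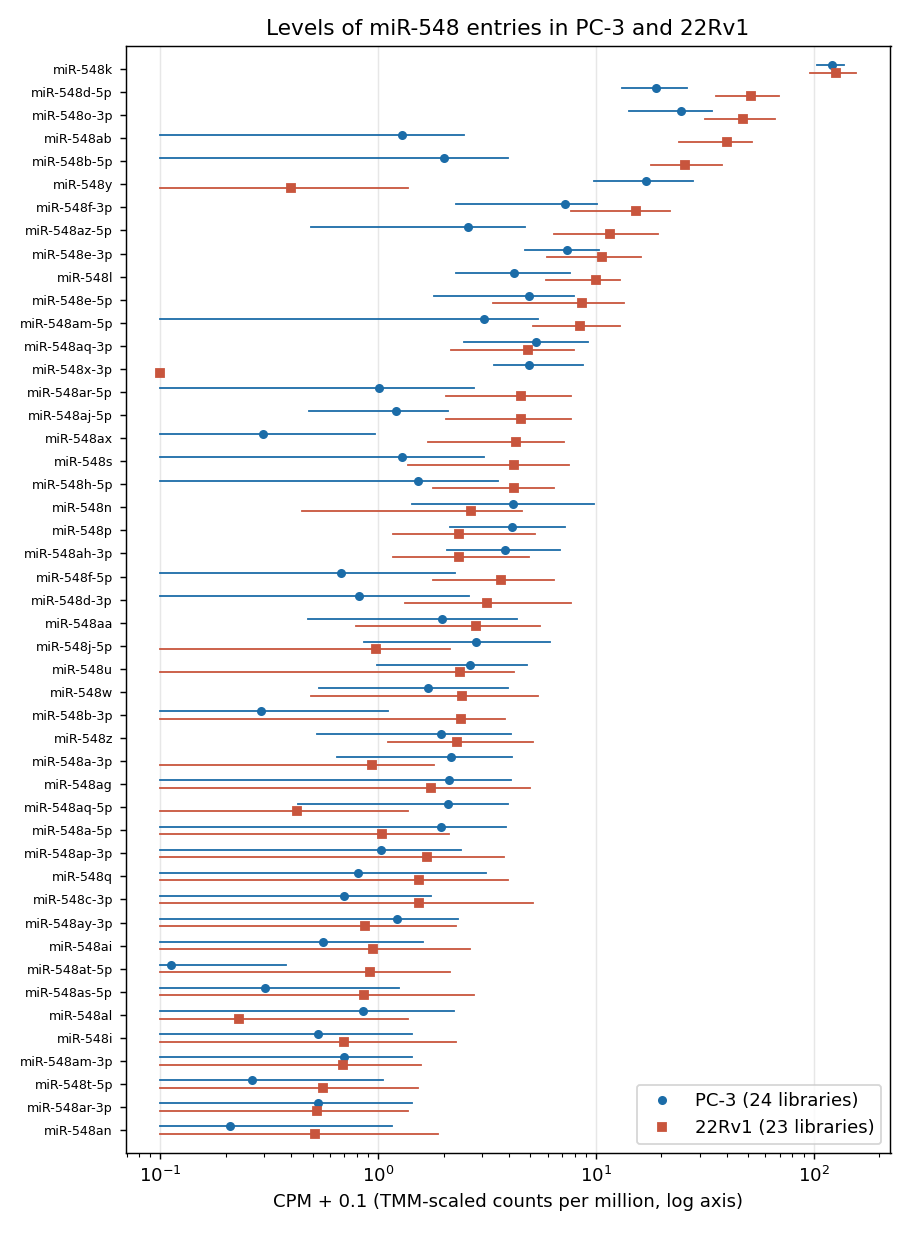
Mean level of the 47 distinct miR-548 entries in PC-3 (circles) and 22Rv1 (squares), as CPM + 0.1 on a log axis, with bars from the lowest to the highest library. miR-548k sits highest with overlapping bars, while miR-548ab and miR-548b-5p sit far to the right in 22Rv1 and miR-548y and miR-548x-3p in PC-3.

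The comparison of the lines in normoxia asks how their miRNA content differs in the controls of the O2 levels, where oxygen was not lowered. Testing required at least 5 CPM in at least 2 libraries, which 27 of the 50 members passed over both lines. Within the lines 15 passed in PC-3 and 22 in 22Rv1, 10 of them in both. By edgeR's quasi-likelihood test with Benjamini-Hochberg adjustment over all 613 entries tested, 23 of the 27 were called at an adjusted p below 0.05. Over all entries 86.0% were called, so a call between these lines is the rule. Of the 27 members 18 were lower and 5 higher in PC-3, that is 66.7 and 18.5%, against 46.3 and 39.6% of all entries tested. The median member was at log2 -1.08 (PC-3 minus 22Rv1), also with miR-548x-3p at its lower bound, and the median entry at -0.15. Of the 27 members, 12 passed in 22Rv1 only and 5 in PC-3 only. Those 5 are the 5 called higher in PC-3, and none of the 12 was called higher there. For these members the filter favoured the direction of the call. The shares and the median therefore describe the tested members and not the family, and give no direction for the family.

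Without TMM, on library size alone, the median of all entries moved to log2 -0.60 and that of the members to -1.55. The calls among members were then 21 lower and 2 higher in PC-3, and over all entries 33.8% of calls were higher in PC-3 in place of 46.1%. Without both PC-3 libraries of replicate 1 at the 5% level 23 members were called, and without the 22Rv1 libraries of that replicate and level 24.

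miR-548k did not differ detectably between the lines. In normoxia its lowest, median and highest library were at 104, 120 and 126 CPM in PC-3 (n = 12) and at 96.6, 124 and 141 CPM in 22Rv1 (n = 11). The PC-3 range lay within that of 22Rv1. The difference was log2 -0.06 (standard error 0.0707, adjusted p = 0.396, edgeR), and on library size alone it was log2 -0.52 (adjusted p = 2.23e-06), where the median entry was at log2 -0.60.

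miR-548ab and miR-548b-5p, which share the seed AAAGUAA, were among the 5 most abundant members in 22Rv1 and at most at 3.86 CPM in any PC-3 library. miR-548ab ran from 0 to 2.37 CPM in PC-3 normoxia (median 1.06) and from 24.1 to 48.1 CPM in 22Rv1 normoxia (median 42.9). The PC-3 level was 37.3-fold lower (log2 -5.22 with a standard error of 0.190, edgeR adjusted p = 6.75e-25), and without PC-3 normoxia replicate 1 of the 1% level the difference was log2 -6.03. Set against miR-548k, from which it differs by 2 bases, the counts of miR-548ab came to 0.971% in PC-3 and 32.3% in 22Rv1. miR-548b-5p ran from 0 to 3.86 CPM in PC-3 normoxia (median 2.15) and from 17.8 to 38 CPM in 22Rv1 normoxia (median 27.8). The PC-3 level was 14.2-fold lower (log2 -3.83 with a standard error of 0.210, edgeR adjusted p = 3.63e-19), and without PC-3 normoxia replicate 1 of the 0.5% level the difference was log2 -4.61. Its other arm, miR-548b-3p, had 11 counts in all PC-3 libraries and 159 in those of 22Rv1 and did not reach the level required for testing.

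miR-548d-5p and miR-548o-3p, abundant in both lines, were lower in PC-3. In normoxia miR-548d-5p was at 13.2, 18.7 and 26.1 CPM (lowest, median, highest) in PC-3 and at 35.6, 55.3 and 69.3 CPM in 22Rv1, with no overlap. Its level in PC-3 was lower by a factor of 3.0 (log2 -1.58 with a standard error of 0.0931, adjusted p = 3.26e-18 in edgeR). miR-548o-3p was at 17.0, 26.1 and 33.9 CPM in PC-3 and at 35.6, 51.9 and 66.7 CPM in 22Rv1, and its ranges just failed to meet in normoxia. The fold was 2.06 (log2 -1.05, standard error 0.107, adjusted p = 2.33e-11).

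Among the less abundant members, miR-548az-5p, miR-548l and miR-548f-3p were lower in PC-3. miR-548az-5p ran from 0.392 to 4.64 CPM in PC-3 normoxia (median 2.17) and from 6.33 to 14.9 CPM in 22Rv1 normoxia (median 11.4), without overlap (log2 -2.40, edgeR adjusted p = 1.11e-13). miR-548l ran from 2.25 to 6.07 CPM (median 4.44) and from 8.83 to 12.6 CPM (median 11.4), also without overlap (log2 -1.47, edgeR adjusted p = 3.88e-10). miR-548l differs from miR-548k by 4 bases, 1 of them in the seed, and unlike miR-548k it was lower in PC-3. The ranges of miR-548f-3p met, at 2.65 to 9.99 CPM in PC-3 and 7.59 to 21.9 CPM in 22Rv1 (log2 -1.19, edgeR adjusted p = 1.53e-08). Those of both arms of miR-548e overlapped as well. miR-548e-5p was at 1.96 to 7.80 and 7.59 to 13.3 CPM (log2 -1.07), and miR-548e-3p at 4.61 to 10.2 and 5.87 to 16 CPM (log2 -0.61). Both arms of this hairpin were thus lower in PC-3.

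The rarest members called in this direction were seen mostly in 22Rv1. miR-548ax had 12 counts over all PC-3 libraries and 270 over those of 22Rv1 (log2 -4.17), and miR-548f-5p 33 and 223 counts (log2 -3.74). miR-548d-3p was at 0 to 1.27 CPM in PC-3 normoxia and 1.27 to 4.78 CPM in 22Rv1 normoxia (log2 -2.70). The seeds of miR-548f-5p and miR-548aj-5p are the same, GCAAAAG, and miR-548aj-5p was lower in PC-3 as well (log2 -1.86). The remaining calls were miR-548ar-5p (log2 -2.29), miR-548s (-1.84), miR-548h-5p (-1.74), miR-548am-5p (-1.08) and miR-548av-3p, which repeats miR-548o-3p. miR-548aj-5p and miR-548ar-5p share a run of 20 bases, and their counts differ by 6.76%. Without PC-3 normoxia replicate 1 of the 2% level the differences were log2 -4.40 for miR-548f-5p and -3.36 for miR-548d-3p, and without that of the 1% level log2 -2.67 for miR-548s.

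The 5 members higher in PC-3 were led by miR-548y and miR-548x-3p. miR-548y ran from 9.76 to 27.8 CPM in PC-3 normoxia (median 15.7) and from 0 to 1.27 CPM in 22Rv1 normoxia (median 0.299). The PC-3 level was 47.9-fold higher (log2 5.58 with a standard error of 0.274, edgeR adjusted p = 2.46e-20), with 18 counts in all 22Rv1 libraries together. miR-548x-3p had 281 counts, seen in 24 of 24 PC-3 libraries at 3.31 to 8.62 CPM, and 0 counts in 23 of 23 22Rv1 libraries. A count of 0 allows up to 3 counts over those libraries, or 0.0463 CPM, so its pooled level of 4.86 CPM in PC-3 was at least 105-fold higher. Both members are thus near or at the limit of detection in 22Rv1. Intervals and limits of this kind cover counting error only. The other 3 were higher by less: miR-548p by log2 0.73, miR-548ah-3p by 0.67 and miR-548n by 0.65. These lost the call on library size alone (adjusted p = 0.242, 0.408 and 0.455), and miR-548ah-3p also without 22Rv1 normoxia replicate 2 of the 5% level (adjusted p = 0.0554). miR-548ah-3p and miR-548p share a run of 19 bases and differ by 7.28% of their counts, and are not 2 independent measurements.

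Besides miR-548k and miR-548av-5p, miR-548aq-3p (log2 0.16, adjusted p = 0.477, edgeR) and miR-548aa (log2 -0.64, adjusted p = 0.0615) did not pass. miR-548aa was called in 26 of 47 fits that left out 1 library, so 1 library moves it across the threshold. Without the requirement on level, all 50 members could be tested and 34 were called, against 72.8% of 1006 entries. The 11 added were miR-548a-3p, miR-548a-5p, miR-548al, miR-548ap-5p, miR-548aq-5p and miR-548j-5p, higher in PC-3, and miR-548as-5p, miR-548at-5p, miR-548b-3p, miR-548c-3p and miR-548q, lower. Of these, miR-548at-5p had 1 count in PC-3 and 50 in 22Rv1, and miR-548al 45 and 7. Not called either way were miR-548ag, miR-548ai, miR-548am-3p, miR-548an, miR-548ap-3p, miR-548ar-3p, miR-548ay-3p, miR-548i, miR-548t-5p, miR-548u, miR-548w and miR-548z, with means of 0.110 to 2.54 CPM in PC-3 and 0.412 to 2.34 CPM in 22Rv1. Over all libraries of both treatments, the lines did not overlap for 7 of 50 members (miR-548x-3p and miR-548y higher in PC-3, and miR-548ab, miR-548ax, miR-548az-5p, miR-548b-5p and miR-548d-5p higher in 22Rv1), against 30.3% of the 1006 entries.

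**Figure D2:**
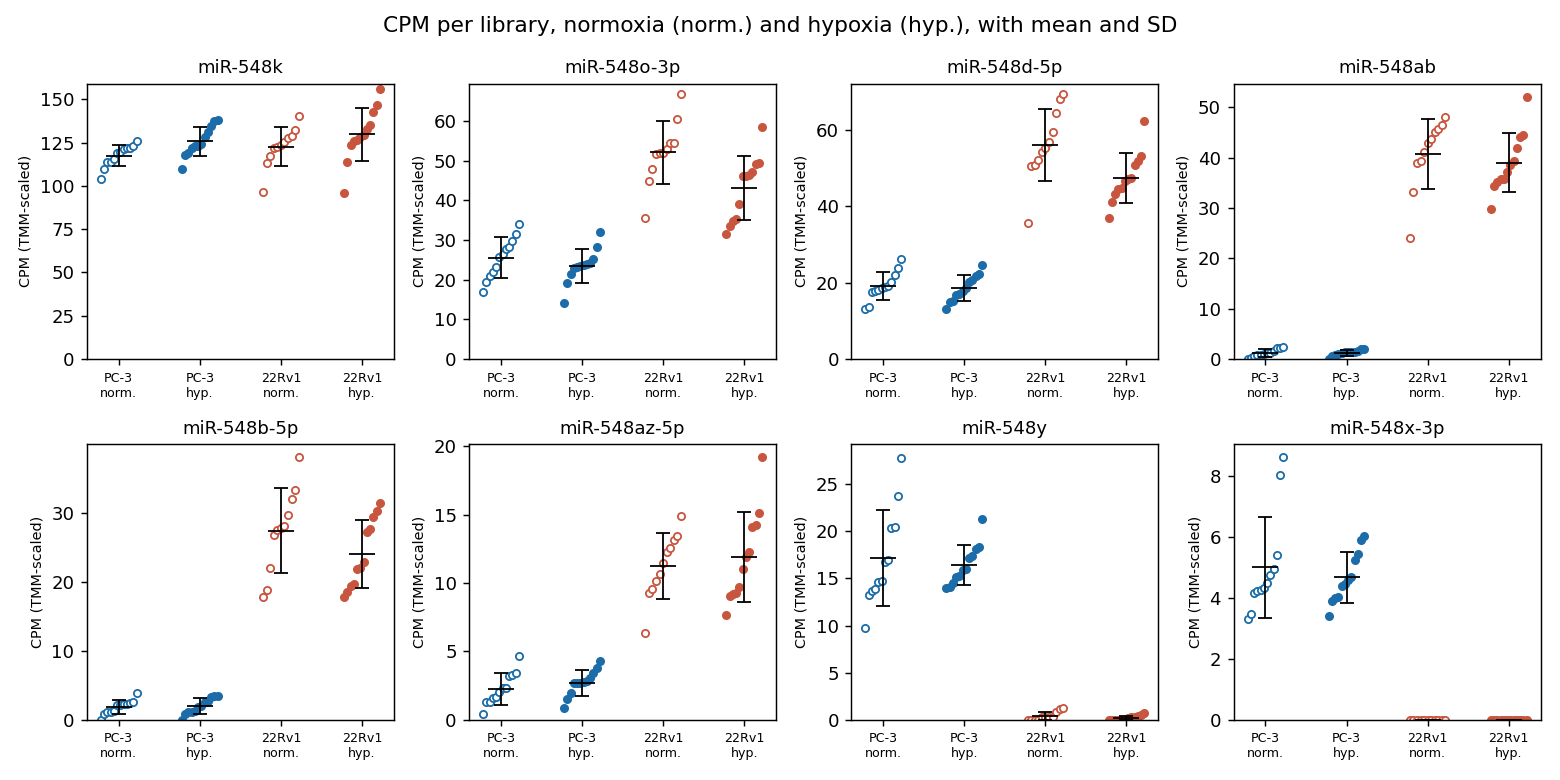
CPM of 8 members in each library by line and treatment (open points normoxia, filled points hypoxia), with the mean and SD in black and points sorted within a group. The lines separate for miR-548d-5p, miR-548ab, miR-548b-5p, miR-548az-5p, miR-548y and miR-548x-3p, and overlap for miR-548k, while the treatments overlap in every panel.

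Among entries with a listed sequence, grouped by seed, the lines differed in the leading member of the largest group but not of the next. Entries without one, such as miR-548d-5p, miR-548am-5p and miR-548e-3p, were not placed in any group. In mean level miR-548d-5p was above miR-548y in PC-3 and above miR-548ab in 22Rv1. The members, sums and shares below therefore describe listed sequences and may not be those of the whole seed group. The most frequent seed among listed sequences, AAAGUAA, belongs to 9 of these entries: miR-548ab, miR-548ap-5p, miR-548aq-5p, miR-548ar-5p, miR-548as-5p, miR-548b-5p, miR-548j-5p, miR-548w and miR-548y. Their sum ran from 20.8 to 38.4 CPM in PC-3 (median 26.4) and from 56.7 to 87.5 CPM in 22Rv1 (median 73.7). In PC-3 61.6% of the mean sum came from miR-548y, whereas in 22Rv1 53.5% came from miR-548ab and 34.4% from miR-548b-5p. Listed members with this seed thus had opposite directions between the lines, and their sum was higher in 22Rv1 without overlap. Among listed sequences the seed AAAAACU belongs to miR-548ah-3p, miR-548am-3p, miR-548aq-3p and miR-548x-3p. Their sum was 14.4 ± 2.37 CPM in PC-3 (n = 24) and 7.63 ± 1.84 CPM in 22Rv1 (n = 23), with overlap. miR-548aq-3p led it in both lines, with 36.2% in PC-3 and 62.8% in 22Rv1, followed by miR-548x-3p in PC-3 (33.7%) and miR-548ah-3p in 22Rv1 (29.5%). Of the listed sequences, miR-548f-3p and the rare miR-548ar-3p have the seed AAAACUG, with sums of 7.53 CPM in PC-3 and 15.7 CPM in 22Rv1. miR-548k has the seed AAAGUAC, which only miR-548av-5p shares among the entries with a listed sequence.

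Hypoxia asks for a change within each line against the matched controls. miR-210-3p, a miRNA transcribed under hypoxia-inducible factor, served as control. It rose from 667 ± 88.4 to 1075 ± 110 CPM in PC-3 (n = 12 each) and from 1153 ± 164 (n = 11) to 2376 ± 429 CPM (n = 12) in 22Rv1. Averaged over the 6 O2 levels the change was log2 0.70 (adjusted p = 1.05e-07) and log2 1.01 (adjusted p = 2.80e-09, edgeR). In the fit without a block for replicate number, no miR-548 member passed in either line. Such a block changed the count of members called in 22Rv1 but not in PC-3, as given in the closing section on processing. By edgeR, in PC-3 0 of 15 members were called, against 11.0% of 463 entries, and 0 had an unadjusted p below 0.05. In 22Rv1 0 of 22 were called, against 13.6% of 552 entries, and 5 had an unadjusted p below 0.05. DESeq2 called 0 in both lines. Without the libraries of replicate 1 at the 5% level 0 were called in either line. The treatments did not separate completely for any of the 50 members in either line, which they did for 0.298% of 1006 entries in PC-3 and 0.199% in 22Rv1.

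miR-548k, the best measured member, was not called against its control at any level. In PC-3 its lowest, median and highest library were at 104, 120 and 126 CPM in normoxia and at 110, 124 and 138 CPM in hypoxia. The hypoxia library was the higher in 9 of 12 pairs of the same level and replicate number, and the mean effect was log2 0.10 (standard error 0.0551, adjusted p = 0.243, edgeR). In 22Rv1 the corresponding levels were 96.6, 124 and 141 CPM and 96.1, 129 and 156 CPM, with hypoxia higher in 7 of 11 pairs and a mean effect of log2 0.07 (standard error 0.0792, adjusted p = 0.649, edgeR). Pairs here and below are matched by label alone, and in 22Rv1 the replicate numbers are not taken to pair the libraries. At single levels the effect ran from log2 0.04 to 0.21 in PC-3 and from log2 -0.18 to 0.21 in 22Rv1.

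**Figure D3:**
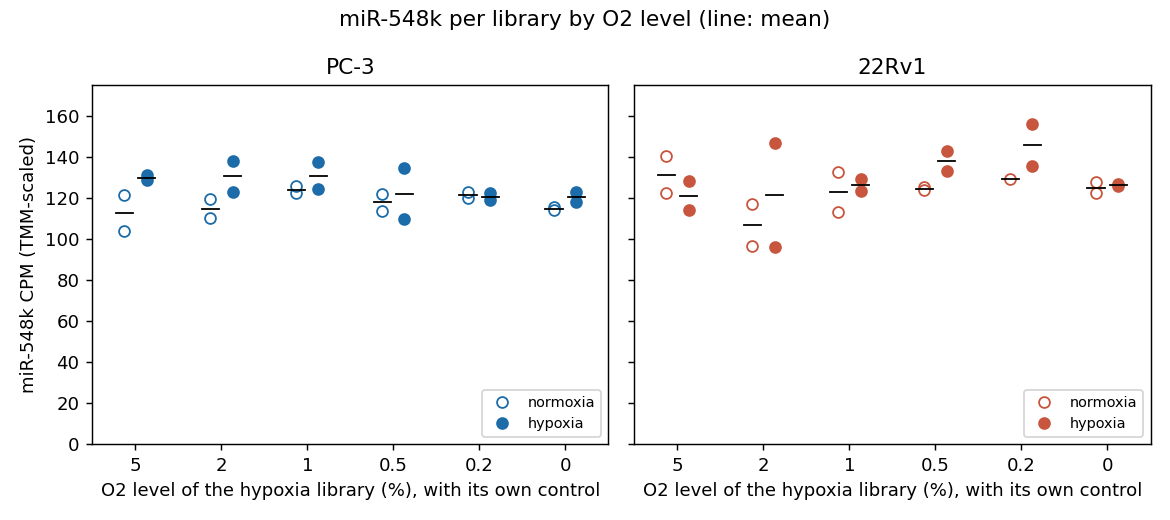
miR-548k CPM in each library by O2 level, normoxia control open and hypoxia filled, with lines at the mean of each group (1 library in the 22Rv1 control of the 0.2% level). Hypoxia and control points lie between 96.1 and 156 CPM at all levels in both lines.

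Mean effects of the 15 PC-3 members ran from log2 -0.34 (miR-548n) to 0.17 (miR-548e-3p), with 10 below 0 and 5 above. Their median was -0.06 and that of all entries -0.00. Standard errors ran from 0.0551 to 0.219, against effects of 0.70 and 1.01 for miR-210-3p. In 22Rv1 the 22 members ran from log2 -0.36 (miR-548h-5p) to 0.28 (miR-548s), with 17 below 0 and 5 above, a median of -0.09 and an all-entry median of 0.01. The 5 with an unadjusted p below 0.05 were all lower in hypoxia: miR-548d-5p, miR-548o-3p, its copy miR-548av-3p, miR-548l and miR-548e-5p.

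miR-548d-5p in 22Rv1 was at 35.6, 55.3 and 69.3 CPM (lowest, median, highest) in normoxia and at 36.9, 46.9 and 62.4 CPM in hypoxia. Hypoxia was the higher in 2 of 11 pairs, and the mean effect was log2 -0.26 (standard error 0.0949, adjusted p = 0.0784, edgeR). miR-548o-3p was at 35.6, 51.9 and 66.7 CPM in normoxia and at 31.5, 46.2 and 58.5 CPM in hypoxia, again higher in hypoxia in 2 of 11 pairs (log2 -0.27, standard error 0.109, adjusted p = 0.112). For both, the treatments overlapped across most of their range. The values of miR-548l were 11.1 ± 1.33 and 8.88 ± 2.37 CPM (log2 -0.35, adjusted p = 0.122) and those of miR-548e-5p 9.41 ± 1.75 and 7.66 ± 2.48 CPM (log2 -0.33, adjusted p = 0.158). The first 3 passed when certain single libraries were left out: miR-548d-5p in 3, miR-548o-3p in 2 and miR-548l in 1 of 23 such fits. Those libraries were hypoxia replicate 1 of the 0.5% level for miR-548d-5p and miR-548l, and hypoxia replicate 2 of the 5% and 0.2% levels for miR-548d-5p and miR-548o-3p.

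**Figure D4:**
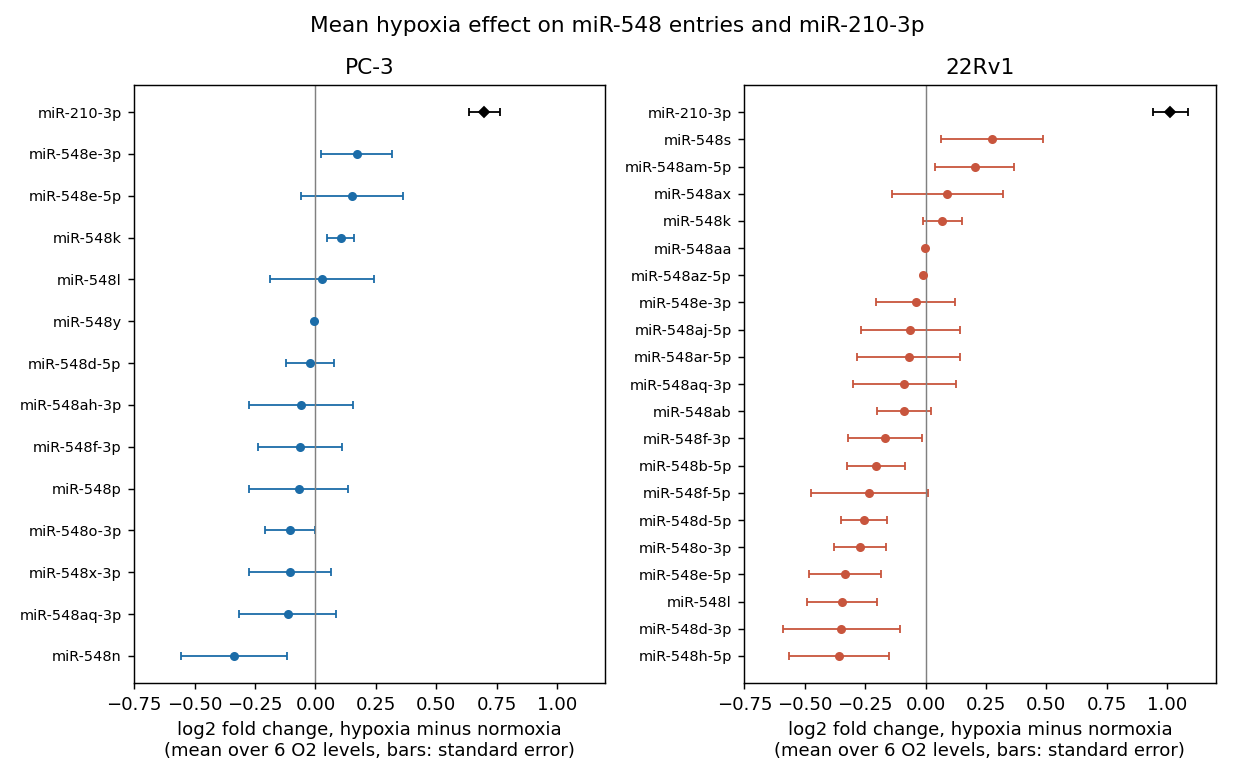
Mean hypoxia effect on the members that could be tested in PC-3 (left) and 22Rv1 (right), as log2 fold change with its standard error, near copies drawn once and miR-210-3p (black) for scale. Members lie between log2 -0.36 and 0.28, below miR-210-3p at 0.70 and 1.01, and an entry without a bar had an effect too near 0 to give a standard error.

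Without a block for replicate number, no member was called at any single O2 level in either line. At 5, 2, 1, 0.5, 0.2 and 0% O2 the share of all entries called was 0.00, 0.648, 0.648, 0.864, 1.51 and 2.81% in PC-3, and 0.00, 0.362, 0.725, 3.08, 0.906 and 4.71% in 22Rv1. By edgeR there were at most 3 members with an unadjusted p below 0.05 at a level in PC-3 and at most 2 in 22Rv1. miR-548d-5p at 5% O2 in 22Rv1 was one of these, with 36.9 and 41.2 CPM in hypoxia and 64.6 and 56.8 CPM in normoxia (log2 -0.68, edgeR adjusted p = 0.892). In PC-3 miR-548o-3p at 0.5% O2 was another, with 14.1 and 25.2 CPM in hypoxia and 33.9 and 29.7 CPM in normoxia (log2 -0.70, edgeR adjusted p = 0.262). In both cases the 2 hypoxia libraries lay below the 2 controls. Without PC-3 hypoxia replicate 2 of that level, miR-548o-3p and its copy passed (log2 -1.22, edgeR adjusted p = 0.0416), with the lone remaining library assumed to vary like the others. The trend over levels, by edgeR, called 0 members in either line (0.216% of all entries in PC-3 and 0.181% in 22Rv1), and 1 member in PC-3 and 0 in 22Rv1 had an unadjusted p below 0.05. DESeq2 called 0 members at every level, in the trends and in the difference of the lines. A difference of the mean effect between the lines was called by edgeR for 0 of 27 members, against 2.94% of 613 entries (18, or 9 to 37 with 1 library left out), and 1 had an unadjusted p below 0.05. That member was miR-548am-5p, at 3.58 ± 1.26 CPM in normoxia and 2.35 ± 1.09 CPM in hypoxia in PC-3, and at 7.84 ± 1.93 and 8.86 ± 2.30 CPM in 22Rv1 (PC-3 minus 22Rv1, log2 -0.84, adjusted p = 0.134, edgeR). It passed without PC-3 hypoxia replicate 1 of the 1% level (log2 -1.60, adjusted p = 0.0184).

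By arm, 27 of the 50 entries belong to the 5' arm and 21 to the 3' arm, and for miR-548ax and miR-548i the arm was not assigned. The 5' arm held 73.2% ± 2.38 of the family's CPM in PC-3 (67.7 to 77.1%) and 74.9% ± 2.23 in 22Rv1 (70.2 to 81.9%). Both arms were listed for 16 hairpin names. The share of the 5' arm was compared where at least 10 libraries of each group had at least 10 counts over both arms, which left 7 names between the lines. With two-sided permutation tests of 100000 resamples, 5 of these 7 (71.4%) passed after adjustment.

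The hairpins miR-548aq, miR-548e and miR-548f have arms that no other member shares count for count. In normoxia the 5' share of miR-548aq was 27.5% ± 13.1 in PC-3 (n = 11 libraries) and 4.26% ± 4.85 in 22Rv1 (n = 10; permutation test, adjusted p = 0.00021). The 3' arm was similar in both lines, at 5.21 ± 1.68 and 4.80 ± 1.34 CPM over all libraries, and the 5' arm was at 1.99 ± 1.03 and 0.326 ± 0.428 CPM. For miR-548f the shares were 3.87% ± 5.13 (n = 11) and 19.9% ± 9.85 (n = 11; permutation test, adjusted p = 0.00014). The 5' sequence of miR-548f is listed at 1 locus and the 3' sequence at several, so its ratio is not that of 1 hairpin. For miR-548e the shares were 39.9% ± 9.54 (n = 12) and 47.3% ± 8.17 (n = 11), which did not pass (permutation test, adjusted p = 0.0663). With at least 20 counts per library the difference for miR-548e was -10.2 percentage points and passed (permutation test, adjusted p = 0.0194). It also passed without PC-3 normoxia replicate 2 of the 2 or 0% level, or without 22Rv1 normoxia replicate 1 of the 5 or 0% level (permutation tests, adjusted p = 0.0298 to 0.0359).

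**Figure D5:**
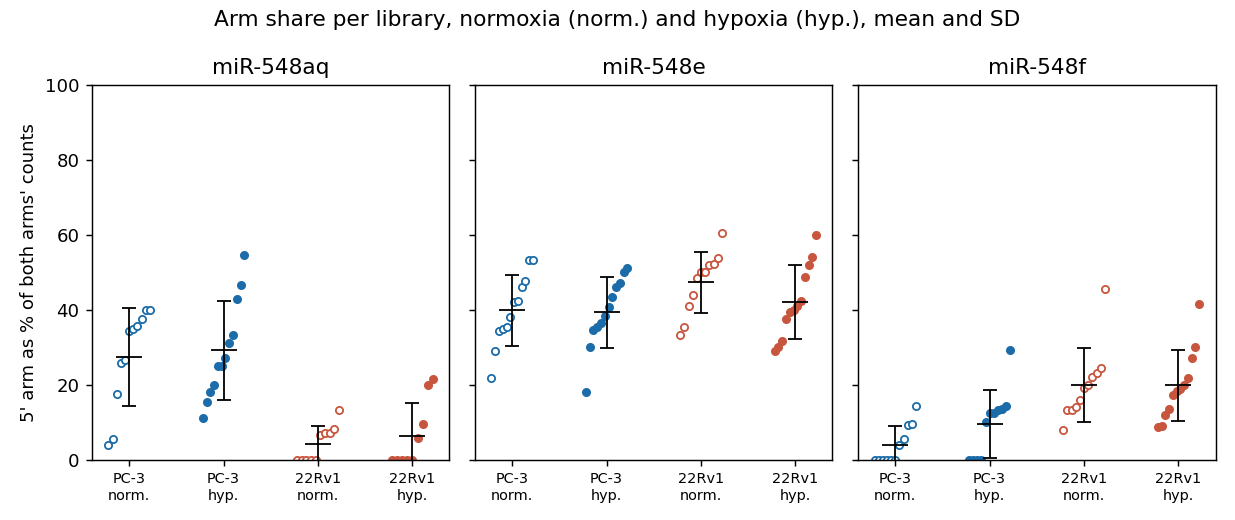
Share of the 5' arm in the counts of both arms for miR-548aq, miR-548e and miR-548f, per library with at least 10 counts (open normoxia, filled hypoxia), with mean and SD. miR-548aq is higher in PC-3 normoxia (27.5%) than in 22Rv1 normoxia (4.26%), miR-548f lower (3.87 against 19.9%), and miR-548e lies near 40 to 47% in both.

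The other called names hold shared entries. The arms of miR-548av are the copies of miR-548k and miR-548o-3p, so its 5' share (82.2% ± 3.32 in PC-3, 70.3% ± 2.97 in 22Rv1) compares those entries (permutation test, adjusted p = 7e-05, from the smallest p that the resamples can give, 1e-05). miR-548ay (95.0 against 98.8%) and miR-548d (97.4 against 94.6%) hold the same 5' entry over different 3' arms. miR-548o (12.3 against 13.4%, adjusted p = 0.493, permutation test) did not pass. A change of the share under hypoxia was called in 0 of 17 comparisons within a line (0.00%), of which 1 had an unadjusted p below 0.05 (permutation tests). That was miR-548av in 22Rv1, with 70.3% ± 2.97 in normoxia and 75.1% ± 4.02 in hypoxia (permutation test, adjusted p = 0.061). It passed without 22Rv1 hypoxia replicate 2 of the 2% level (adjusted p = 0.00017, permutation test). With a minimum of 20 counts its difference and unadjusted p were unchanged. It passed there (permutation test, adjusted p = 0.0431) because 12 in place of 17 comparisons were adjusted for.

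miR-570, a relative from the same element, was rare in both lines. miR-570-5p has the counts and the sequence of miR-548ai (82 counts in all) and shares its seed with miR-548ag. miR-570-3p was at 1.25 ± 0.696 CPM in PC-3 and 1.47 ± 0.719 CPM in 22Rv1. A list of other miRNAs described as derived from transposable elements, such as miR-28, miR-151a, miR-340, miR-374b, miR-582 and miR-616, was compared. In normoxia 15 of its 26 tested entries were higher in PC-3, 9 lower and 2 not called (39.6% of all entries were higher and 46.3% lower), with a median of log2 0.83, against log2 -1.08 for the miR-548 members. The median of the miR-548 members depends on the filter, as given for the lines above. Entries of the list ran from log2 -3.82 (miR-1273d) to 8.87 (miR-584-5p). Under hypoxia 1 of 24 passed in PC-3, against 11.0% of all entries: miR-582-5p was lower (log2 -0.32, edgeR adjusted p = 0.0253). In 22Rv1 1 of 25 passed, against 13.6% of all entries: miR-582-3p was higher (log2 0.52, edgeR adjusted p = 3.074e-04). miR-582-3p was at log2 -0.20 in PC-3 (edgeR adjusted p = 0.121), and the difference between the lines was called for it.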

How the data were processed

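Small RNA libraries of PC-3 and 22Rv1 were used as 2 deposited tables. The authors deposited whole-number counts per mature miRNA, and a table of CPM that they had scaled by TMM factors. Each CPM column was the counts times 1 constant (relative difference at most 2.53e-09). The submitters' processing notes name FastQC and hg19. No source used here names the aligner or the counting tool, or says how reads that match several members were treated, which bears on every near-identical member.

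Tests used the counts in R 4.3.3 with edgeR 4.0.16 (TMM, 1 mean per group, quasi-likelihood test), keeping entries that reached 5 CPM in 2 or more libraries, with Benjamini-Hochberg adjustment over all entries tested and a call at 0.05. The single 22Rv1 control library at 0.2% was assumed to vary like the other groups. CPM in the text are from a TMM fit over both lines. DESeq2 1.42.0 and other scalings, filters, a replicate block and leaving out libraries were alternatives. Arm shares were compared by permutation, two-sided. Scripts were tested on simulated data.

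The 2 libraries of a group differed by more than counting noise (chi-square per degree of freedom at least 22.8). In PC-3, hypoxia and control libraries of 1 number deviated together (correlation 0.26 to 0.49 over the 6 levels), so the numbers may pair them. Libraries of different levels were not compared, so pairing cannot be told from a replicate difference common to all levels. The PC-3 tests in the text are from the fit without a block. The block changed no call of a member in PC-3. With it 0 of 15 members were called in the mean effect, against 109 of 463 entries. Sequences are from RefSeq. The members and lists were chosen with earlier results of these data known. Named with values were members past the filter, the 5 most abundant per line and those called.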

Additional observations from a re-analysis of the deposited data

How the results depend on the processing

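Counts of called miR-548 members kept their value or stayed within 1.5 times of it, except as follows. With a replicate block, 4 of 22 members passed in the 22Rv1 mean hypoxia effect in place of 0, against 163 of 552 entries. These were miR-548d-5p, miR-548l, miR-548o-3p and its copy miR-548av-3p, all lower. At single levels of 22Rv1 2 of 132 member tests passed, against 206 of 3312 over all entries. These were miR-548f-3p at 0.5% and miR-548b-5p at 0%, both lower. The block without a filter on low counts, chosen after seeing the data, also gave 4 (of 49) and 2 (of 294). Over all entries it gave 167 of 994 and 224 of 5964. It further gave 1 of 50 members in the difference of the lines (miR-548am-5p), against 93 of 1006 entries, and 35 of 50 between the lines in normoxia. With neither block nor filter 34 of 50 were called in normoxia, against 72.8% of all entries. In 22Rv1 same-numbered libraries correlated at 0.0964 to 0.367 in their deviations, with 1 of 5 pairs of groups under 0.1, so the numbers are not taken to pair these libraries. In normoxia a filter of 10 CPM left 12 of 23 calls, since fewer members were tested. A minimum of 20 counts gave 1 called arm share under hypoxia in place of 0, with 12 comparisons tested in place of 17. Leaving out 1 library at a time gave 0 to 3 members in the 22Rv1 mean effect, 0 to 2 at single PC-3 levels, 0 to 1 for the difference of the lines, 22 to 24 in normoxia, and 0 to 1 arm shares under hypoxia and 4 to 6 between the lines, where miR-548aq drops out below 10 libraries.

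Over all entries, the block raised the calls of the mean effect from 51 to 109 in PC-3 and from 75 to 163 in 22Rv1 (103 and 167 without a filter), of single levels from 30 to 136 and from 54 to 206 (167 and 224), and of the difference from 18 to 61 (93). Trend calls went from 1 to 3 in PC-3 (4) and to 17 in 22Rv1 (35). Library size alone gave 46 for the 22Rv1 mean, 18 and 21 at single levels and 7 for the difference. Leaving out 1 library at a time gave 9 to 37 calls for the difference, lowest without PC-3 normoxia replicate 1 of 2% or replicate 2 of 0.5% and highest without 22Rv1 hypoxia replicate 2 of 0.2%. It gave 12 to 38 at single PC-3 levels, lowest without hypoxia or normoxia replicate 1 of 0%, and 29 to 76 at single 22Rv1 levels, lowest without normoxia replicate 2 of 0.5%. Most members hold few counts, which limits every comparison of the rarer ones.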
